A study of Homo sapiens with 18 samples.

Results

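The genes described here are 32 genes listed as androgen-induced in prostate cells, other than the kallikreins: proteases, channels, receptors, enzymes, scaffolds and nuclear proteins. They were named from a list, and their measurements were found through the probe sets that the array platform's annotation gives to each gene. A probe set with a single gene symbol was found for 29 of the 32, out of 19775 genes named on the array. Both probe sets listed for HERC3, a ubiquitin ligase, carry several gene symbols and so name no gene, and KCNN2, a potassium channel, and SORD, sorbitol dehydrogenase, were not analysed here. Of the 29 genes, 28 passed the filter on low signal and were among the 13607 genes tested. LAMA1 did not, and 3 others, HPGD, MAK and CCDC141, passed it through the DHT-treated groups alone. The genes were chosen by their rise with DHT under control siRNA, and were sorted by their change with TRIM24 siRNA under DHT and by their level in LNCaP-abl against LNCaP under control siRNA. Those 3 contrasts are therefore given as descriptions with no test.

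The measurements come from 18 one-colour Affymetrix arrays of total RNA in 6 groups of 3. LNCaP cells come from a human prostate cancer and respond to androgen, and LNCaP-abl is a derived line that grows without it. LNCaP received a control siRNA or an siRNA against TRIM24, each with ethanol vehicle or with 10 nM dihydrotestosterone (DHT), the potent natural androgen, and LNCaP-abl received the control or the TRIM24 siRNA with vehicle. Transfection lasted 48 h, the hormone or vehicle was given for 24 h, and before treatment the cells were kept for 48 h in medium with charcoal-stripped serum, which lacks steroids. All 6 groups share that starvation and a transfection. LNCaP-abl was not given DHT. How many siRNAs targeted TRIM24 is not stated in the labels, which number the arrays of a group without saying that they came from separate cultures. The p-values therefore measure the spread between arrays, which may be technical.

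Androgens act on transcription through androgen response elements in DNA, most of them far from promoters, where coactivators are recruited that raise transcription of nearby genes. In prostate luminal cells the genes they induce include secreted proteases, lipid and amino acid enzymes, and regulators of growth factor signalling, and many of them regain activity in tumours that have become resistant to androgen withdrawal. TRIM24 is a chromatin-reading protein with a PHD finger and a bromodomain that binds nuclear receptors. The comparisons ask which androgen-induced genes are set by TRIM24, with and without hormone, and which of them the androgen-independent line expresses without hormone.

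Promoter sequence was available for 25 of the 32 genes, as 53 windows of 300 bases (250 before to 50 after a transcription start) in the RefSeq table of build GRCh38.p14. TMPRSS2, ADAMTS1, LAMA1, SORD, ZBTB10, MED28 and TPD52 had no entry. The half-site of an androgen response element, AGAACA, read on both strands, was found in 5 of the 53 windows, 9.43% (exact 95% binomial interval 3.13% to 20.7%), belonging to 4 genes, against 5192 of all 35116 windows of the same length, 14.8%. The looser half-site AGNACA, which contains AGAACA, was in 17 of 53 (32.1%) against 41.4% of all windows. The full palindromic element, AGAACA and its reverse complement spaced by any 3 bases, was in 0 of the 53 and in 1 of the 35116. The windows had a median GC content of 62.0%, and all windows one of 58.7%. The binomial interval takes the 53 windows as independent, although some genes have several windows and some windows of a gene overlap. A match describes letters and not a binding site. The 5 windows with the half-site are printed because they are the promoters where the sequence of the response element meets the genes measured here, and the CCDC141 promoter is added because that gene had the largest response to DHT and no match. Bases of the half-site are in capitals, and the sequences are written 5′ to 3′ on the strand of the gene.
TRPM8 (chr2:233979899-233980198, plus strand): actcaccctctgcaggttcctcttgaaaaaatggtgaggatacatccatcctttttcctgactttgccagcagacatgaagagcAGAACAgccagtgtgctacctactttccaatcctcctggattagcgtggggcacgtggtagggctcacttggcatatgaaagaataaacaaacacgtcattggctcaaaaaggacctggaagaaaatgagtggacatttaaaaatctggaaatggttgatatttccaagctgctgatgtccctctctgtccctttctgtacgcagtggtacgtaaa
LIFR (chr5:38557418-38557717, minus strand): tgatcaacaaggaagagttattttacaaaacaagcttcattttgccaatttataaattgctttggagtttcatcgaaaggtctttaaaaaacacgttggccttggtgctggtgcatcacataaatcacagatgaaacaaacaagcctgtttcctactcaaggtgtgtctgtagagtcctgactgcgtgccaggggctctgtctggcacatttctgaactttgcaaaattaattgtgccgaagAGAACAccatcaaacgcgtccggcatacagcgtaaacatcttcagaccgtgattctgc
IQGAP2 (chr5:76547159-76547458, plus strand): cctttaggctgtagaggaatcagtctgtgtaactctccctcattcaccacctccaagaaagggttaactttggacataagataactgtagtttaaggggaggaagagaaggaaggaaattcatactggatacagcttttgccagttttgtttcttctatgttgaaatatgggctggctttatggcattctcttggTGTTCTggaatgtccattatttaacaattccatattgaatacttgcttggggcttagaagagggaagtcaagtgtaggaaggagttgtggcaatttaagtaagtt
PMEPA1, first start (chr20:57711423-57711722, minus strand): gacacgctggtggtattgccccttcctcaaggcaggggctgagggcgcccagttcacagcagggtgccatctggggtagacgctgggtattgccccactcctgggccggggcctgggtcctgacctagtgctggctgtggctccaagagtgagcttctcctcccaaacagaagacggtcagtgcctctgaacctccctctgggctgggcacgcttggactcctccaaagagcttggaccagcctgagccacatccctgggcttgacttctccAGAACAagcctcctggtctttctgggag
PMEPA1, second start (chr20:57710528-57710827, minus strand): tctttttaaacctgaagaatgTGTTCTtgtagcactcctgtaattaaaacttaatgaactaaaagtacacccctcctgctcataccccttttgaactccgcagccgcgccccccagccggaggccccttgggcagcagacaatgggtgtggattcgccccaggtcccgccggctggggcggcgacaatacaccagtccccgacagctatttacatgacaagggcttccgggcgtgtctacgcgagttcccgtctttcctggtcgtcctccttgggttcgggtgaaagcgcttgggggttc
CCDC141 (chr2:179050088-179050387, minus strand): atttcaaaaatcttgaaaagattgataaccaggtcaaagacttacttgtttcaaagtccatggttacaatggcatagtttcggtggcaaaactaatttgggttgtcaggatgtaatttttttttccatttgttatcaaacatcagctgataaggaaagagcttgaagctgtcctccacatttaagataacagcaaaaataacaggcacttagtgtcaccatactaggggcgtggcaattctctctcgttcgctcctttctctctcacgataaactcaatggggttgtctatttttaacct

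All values are on the log2 scale as deposited, so a difference of 1 is a doubling, and each gene is represented by its probe set with the highest mean. Errors of levels are SD over 3 arrays and errors of differences are standard errors of the limma fit. The 18 arrays had medians of 5.83 to 5.93, and arrays of a group correlated at 0.996 to 0.998. TRIM24 itself fell by 1.99 with its siRNA in starved LNCaP, and its difference was -2.14 under DHT and -2.08 in LNCaP-abl. The 4 luminal prostate markers that could be named of 6 were above the median of the table (5.88) in every group, with a mean level of 11.12 to 12.06 on the arrays, and neither of the 2 basal markers named was. Of leukocyte markers 0 or 1 of 3 was above that median, of endothelial markers 2 of 3, of neuroendocrine markers 2 of 4 and of fibroblast markers 1 to 3 of 5. The fibroblast markers had a mean level of 5.27 to 5.44 on the DHT arrays and of 5.65 to 5.90 on the others, and their part in the results was not tested. In bulk RNA, fewer cells of a kind and less RNA per cell cannot be told apart.

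A measure of RNA quality moved with the siRNA. The 3′ signal of the GAPDH control probe sets exceeded the 5′ signal by 0.52 ± 0.03 in LNCaP with control siRNA and vehicle and by 0.59 ± 0.02 with TRIM24 siRNA. With DHT the same values were 0.56 ± 0.01 and 0.63 ± 0.01, and in LNCaP-abl they were 0.56 ± 0.01 and 0.64 ± 0.02. For the ACTB control probe sets the excess was 1.87 ± 0.06 in starved LNCaP with control siRNA. After knockdown it was 2.05 ± 0.07. Under DHT the ACTB excess was 1.85 ± 0.09 with control siRNA, against 2.19 ± 0.07 after knockdown. The LNCaP-abl arrays had 1.87 ± 0.09 and 1.99 ± 0.09 in the same order. The knockdown results are therefore given with a fit that held the control-probe 3′ excess as a covariate wherever it changed a call.

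With DHT and the control siRNA, 26 of the 29 genes were higher by at least 0.5, from CAMKK2 at 0.51 ± 0.09 to CCDC141 at 5.98 ± 0.08. These values were known when the genes were chosen and are a description. In that contrast 27 of the 28 genes tested were called higher, where 19.4% of all genes tested were. The median of the 28 was 2.02 and that of all genes tested was -0.04. That contrast was known when the genes were chosen, so nothing is read from the count. By their brightest probe sets, 3 genes on the list were not higher by 0.5. MED28, a subunit of the Mediator complex, was at 10.70 ± 0.01 without and 10.65 ± 0.05 with DHT, and its 10 probe sets differed with DHT by -0.28 to 0.16. LAMA1, a laminin chain, was at 5.55 ± 0.02 and 5.56 ± 0.04, below the median of the table in both. A dimmer LAMA1 probe set was at 4.64 and 5.48, a difference of 0.84, and at 0.75 for the same difference with TRIM24 siRNA. ADAMTS1, a secreted metalloprotease, was near the top of the scale in all groups and was higher by 0.12 ± 0.04.

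**Figure D1:**
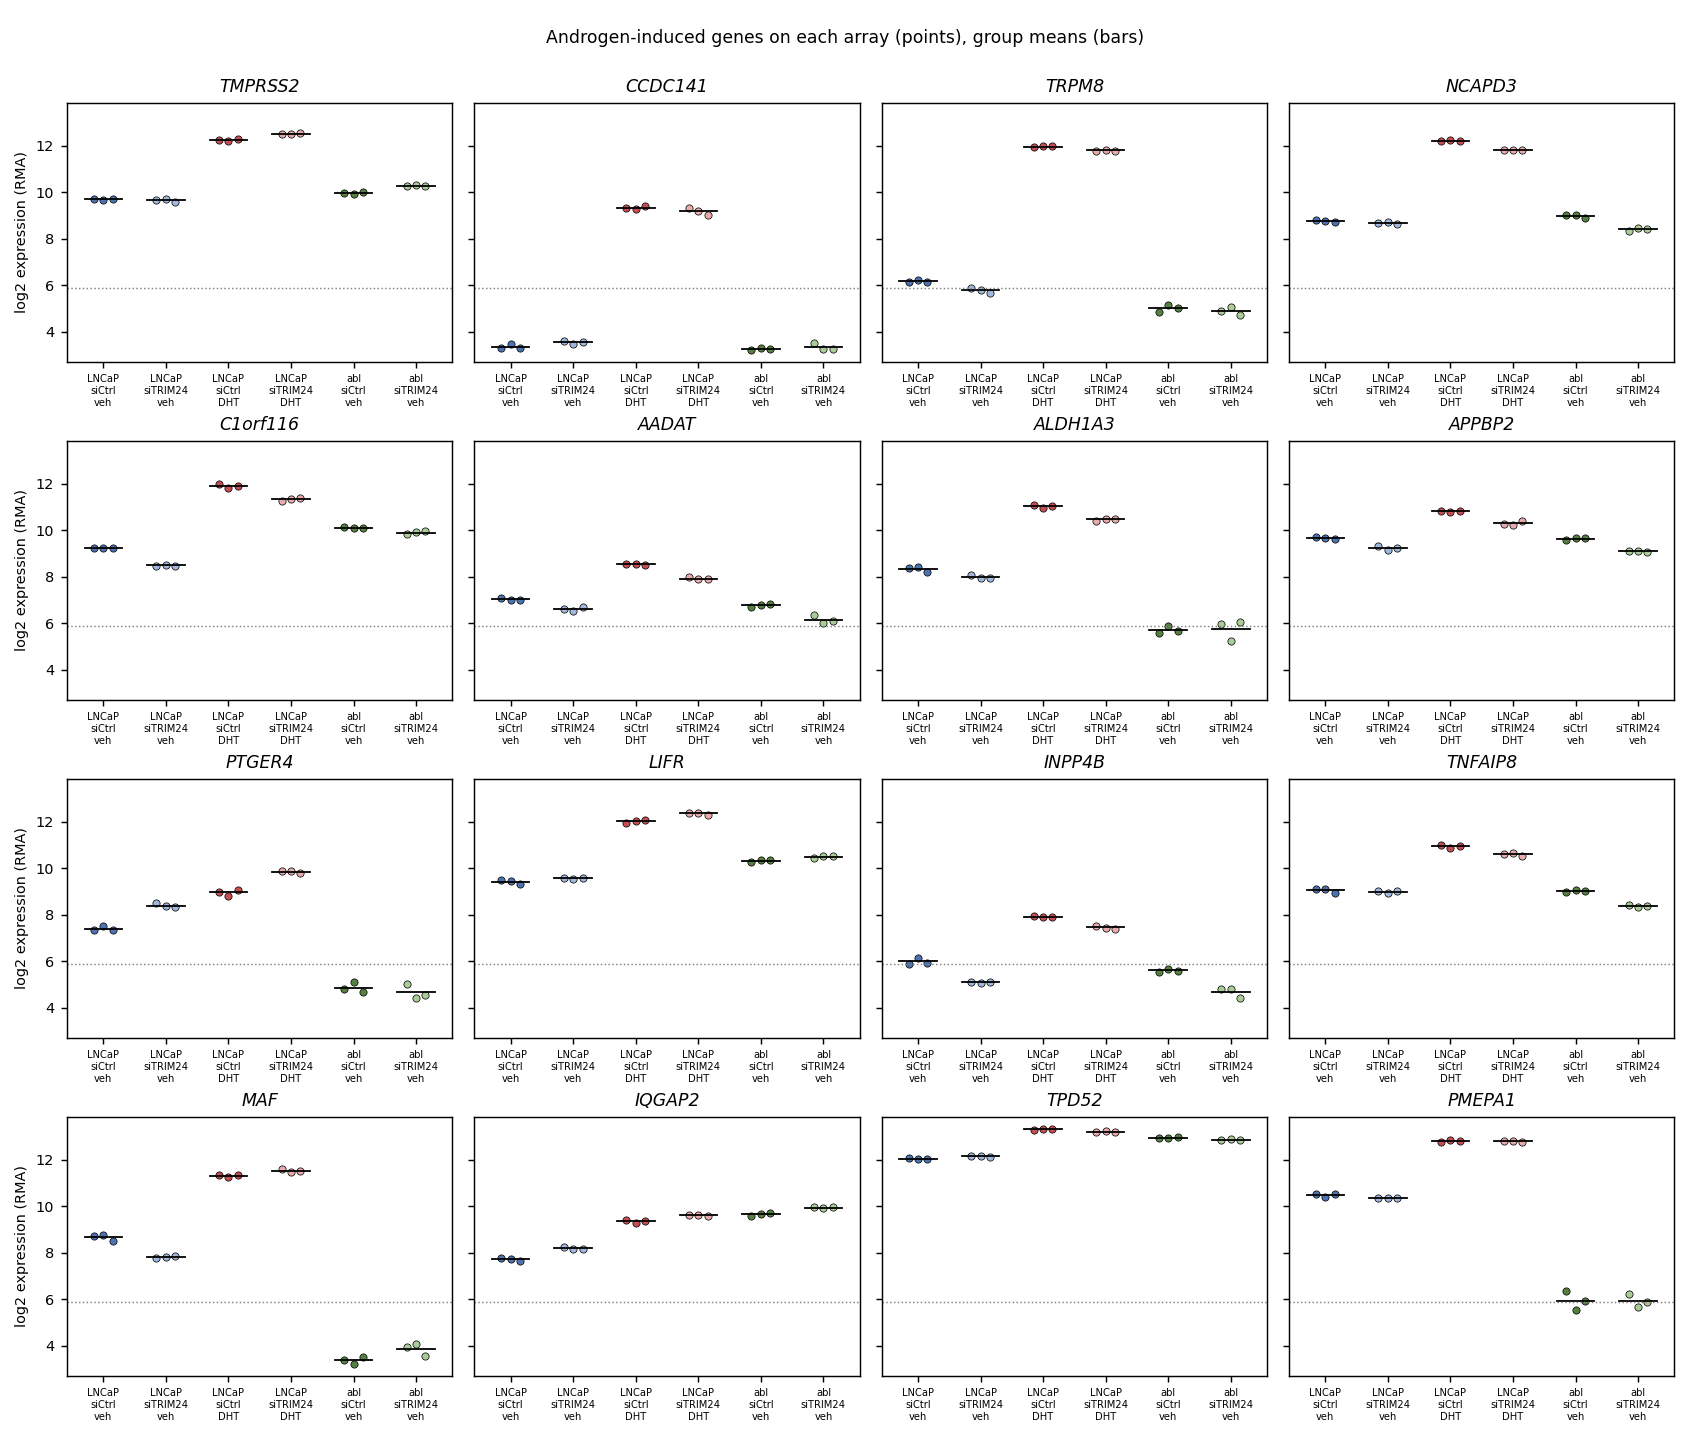
Each panel shows 1 gene; the vertical axis is log2 expression after RMA, points are arrays (3 per group), bars are group means and the dotted line is the median of the table (5.88). All 16 genes sit higher in both DHT groups than in the vehicle groups of LNCaP. For IQGAP2 the LNCaP-abl arrays with control siRNA (9.57, 9.68 and 9.71) lie above the DHT arrays with control siRNA (9.40, 9.30 and 9.36).

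The genes whose products are at the cell surface or secreted come first. TMPRSS2 encodes a membrane-anchored serine protease and is the androgen-driven partner in the common ETS gene fusions of prostate cancer. TMPRSS2 was at 9.72, 9.68 and 9.71 in LNCaP with vehicle and control siRNA and at 9.66, 9.70 and 9.60 with TRIM24 siRNA. With DHT, TMPRSS2 was at 12.24, 12.22 and 12.28 with control siRNA and at 12.49, 12.51 and 12.56 with TRIM24 siRNA. In LNCaP-abl, TMPRSS2 was at 9.95, 9.94 and 10.01 and, after knockdown, at 10.26, 10.32 and 10.27. The 2 vehicle groups of LNCaP overlapped, while with DHT and in LNCaP-abl every knockdown array was above every control array. The difference with knockdown under DHT was 0.27 ± 0.03, and the rise with knockdown in LNCaP-abl was 0.32 ± 0.03 (limma, adjusted p = 1.83e-06). In LNCaP with vehicle it was -0.05 ± 0.03 (adjusted p = 0.251). All 3 TMPRSS2 probe sets tested had this pattern, with differences of 0.25 to 0.33 under DHT and 0.20 to 0.37 in LNCaP-abl.

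TRPM8 is a cation channel opened by cold and menthol. TRPM8 was at 6.16, 6.25 and 6.15 in starved LNCaP with control siRNA and at 5.88, 5.79 and 5.69 with TRIM24 siRNA. With DHT, TRPM8 was at 11.95, 11.98 and 11.98 and 11.79, 11.83 and 11.79 with the control and the TRIM24 siRNA. In LNCaP-abl, TRPM8 was at 4.86, 5.17 and 5.03 with control and 4.90, 5.05 and 4.71 with TRIM24 siRNA. Without hormone the gene sat near or below the median of the table, and all 6 LNCaP-abl arrays were below all LNCaP arrays. DHT with TRIM24 siRNA raised TRPM8 by 6.01 ± 0.08 (limma, adjusted p = 1.66e-17), from a starved level with that siRNA below the median of the table, where values are compressed. With knockdown in LNCaP with vehicle TRPM8 fell by 0.40 ± 0.08 (adjusted p = 0.000783), which was -0.31 with adjusted p = 0.053 when the control-probe 3′ excess was in the model. In LNCaP-abl knockdown gave -0.13 ± 0.08 (adjusted p = 0.19), which was called at -0.21 (adjusted p = 0.0401) without the first control or the second knockdown array. LNCaP-abl differed from LNCaP by -1.16 ± 0.08 with control siRNA, and by -0.90 ± 0.08 with TRIM24 siRNA (adjusted p = 3.76e-08).

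LIFR, the receptor for leukemia inhibitory factor, signals through the JAK and STAT pathway. LIFR was at 9.48, 9.47 and 9.31 in starved LNCaP with control siRNA and at 9.60, 9.55 and 9.58 after knockdown. With DHT, LIFR was at 11.95, 12.03 and 12.08 and, after knockdown, at 12.40, 12.39 and 12.29. In LNCaP-abl, LIFR was at 10.28, 10.34 and 10.35 and 10.46, 10.51 and 10.51. In each of the 3 settings the knockdown arrays were above the control arrays with no overlap, and LNCaP-abl lay between starved and DHT-treated LNCaP. The rise with knockdown was 0.15 ± 0.05 in LNCaP with vehicle (limma, adjusted p = 0.0173) and 0.17 ± 0.05 in LNCaP-abl (adjusted p = 0.00863). The first rested on single arrays: without the third control array it was 0.10 (adjusted p = 0.0983), and without the first knockdown array 0.14 (adjusted p = 0.0586). Probe sets of LIFR differed, since of the 4 tested 2 were at 0.15 and 0.19 with knockdown under vehicle and the other two at -0.24 and -0.07. In LNCaP-abl the 3 further probe sets were at 0.23, 0.08 and -0.11.

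PTGER4 is a prostaglandin receptor that raises cyclic AMP. PTGER4 was at 7.33, 7.54 and 7.33 in starved LNCaP and at 8.49, 8.37 and 8.32 with TRIM24 siRNA. With DHT, PTGER4 was at 8.99, 8.83 and 9.08 with control siRNA and 9.88, 9.88 and 9.82 after knockdown. In LNCaP-abl, PTGER4 was at 4.79, 5.11 and 4.69 and 5.02, 4.44 and 4.54. Knockdown arrays of LNCaP lay clear of their controls at both treatments, and the LNCaP-abl groups, both below the median of the table, overlapped. Knockdown raised PTGER4 in LNCaP with vehicle by 0.99 ± 0.13 (limma, adjusted p = 1.33e-05), close to a doubling, and the difference under DHT was 0.90 ± 0.13. In LNCaP-abl the difference was -0.20 ± 0.13 (adjusted p = 0.227), which became -0.37 (adjusted p = 0.0108) without the first knockdown array. Against LNCaP, LNCaP-abl was at -2.54 ± 0.13 with control siRNA and -3.73 ± 0.13 with TRIM24 siRNA (adjusted p = 2.87e-13).

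The remaining surface genes moved less. ANKH, a transporter of pyrophosphate, fell with knockdown by 0.25 ± 0.03 in LNCaP with vehicle (limma, adjusted p = 2.25e-06). In LNCaP-abl ANKH fell by 0.22 ± 0.03 (adjusted p = 1.03e-05), while under DHT the difference was 0.00 ± 0.03. These values are of the brightest ANKH probe set, and the other 4 tested were between -0.10 and 0.02 in LNCaP with vehicle. In LNCaP-abl those 4 were at -0.06, 0.02, 0.11 and -0.04, with none called. Under DHT those 4 were at 0.23, 0.22, 0.46 and 0.29, so the place of ANKH among genes neither higher nor lower there rests on 1 of 5 probe sets. LRIG1, which restrains receptors of the EGF family, fell by 0.11 ± 0.04 in LNCaP with vehicle (adjusted p = 0.0182) and rose by 0.17 ± 0.04 in LNCaP-abl (adjusted p = 0.000863). The fall in LNCaP was no longer called without the second (adjusted p = 0.0544) or the third knockdown array (adjusted p = 0.0652). ADAMTS1 was at -0.08 ± 0.04 and 0.07 ± 0.04 in the same comparisons, with neither called (adjusted p = 0.112 and 0.114). With the control-probe 3′ excess in the model ADAMTS1 was called in LNCaP-abl, at 0.12 (adjusted p = 0.0329).

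Among the enzymes, AADAT and INPP4B were lower with TRIM24 siRNA in all 3 settings, INPP4B under DHT only without the control-probe 3′ excess in the model. AADAT encodes an aminotransferase of kynurenine and lysine breakdown. AADAT was at 7.07, 7.02 and 6.99 in starved LNCaP and at 6.63, 6.51 and 6.72 after knockdown. With DHT, AADAT was at 8.57, 8.56 and 8.49 and, after knockdown, at 7.98, 7.90 and 7.90. In LNCaP-abl, AADAT was at 6.70, 6.81 and 6.82 with control and 6.36, 6.03 and 6.10 with TRIM24 siRNA. Control and knockdown arrays did not overlap in any setting. AADAT fell by 0.40 ± 0.07 in LNCaP with vehicle (limma, adjusted p = 0.000253), and by 0.61 ± 0.07 in LNCaP-abl (adjusted p = 3.38e-06). Under DHT the difference was -0.61 ± 0.07, and with the control-probe 3′ excess in the model it was -0.35, while the change in LNCaP with vehicle was -0.25 (adjusted p = 0.0441).

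INPP4B is a lipid phosphatase that limits phosphoinositide signalling to AKT. INPP4B was at 5.90, 6.14 and 5.95 in starved LNCaP and at 5.10, 5.09 and 5.12 after knockdown. With DHT, INPP4B was at 7.97, 7.89 and 7.92 and 7.51, 7.45 and 7.41 with control and TRIM24 siRNA. In LNCaP-abl, INPP4B was at 5.55, 5.69 and 5.60 and 4.79, 4.79 and 4.43. Each knockdown group was below its control group, and without hormone the knockdown arrays of both lines were below the median of the table. The gene fell by 0.89 ± 0.08 in LNCaP with vehicle (limma, adjusted p = 2.76e-07) and by 0.94 ± 0.08 in LNCaP-abl (adjusted p = 1.34e-07). A second, dimmer INPP4B probe set was at -0.43 and -0.31 in these comparisons and at 0.14 under DHT, where the main probe set was at -0.47 ± 0.08. With the control-probe 3′ excess in the model the main probe set was at -0.25 under DHT and in neither group.

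ALDH1A3 makes retinoic acid from retinaldehyde. ALDH1A3 was at 8.39, 8.43 and 8.21 in starved LNCaP and at 8.06, 7.93 and 7.93 after knockdown. With DHT, ALDH1A3 was at 11.07, 10.95 and 11.06 and, after knockdown, at 10.42, 10.50 and 10.48. In LNCaP-abl, ALDH1A3 was at 5.60, 5.89 and 5.65 and 5.99, 5.26 and 6.07. In LNCaP-abl the gene was near the median of the table, far under starved LNCaP, and its knockdown arrays there were widely spread. Against LNCaP the difference was -2.63 ± 0.15 with control siRNA, and -2.20 ± 0.15 with TRIM24 siRNA (limma, adjusted p = 1.75e-09). Knockdown gave -0.56 ± 0.15 under DHT, and -0.37 ± 0.15 with vehicle was not called (adjusted p = 0.063). In LNCaP-abl knockdown gave 0.06 ± 0.15 (adjusted p = 0.775), and without the second knockdown array 0.32 (adjusted p = 0.00638).

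GNMT, a methyltransferase that consumes S-adenosylmethionine, fell with knockdown in LNCaP with vehicle by 0.39 ± 0.08 (limma, adjusted p = 0.00119). In LNCaP-abl GNMT fell by 0.25 ± 0.08 (adjusted p = 0.0192), a call that was lost without the first control array (-0.23, adjusted p = 0.057) or the second knockdown array (-0.12, adjusted p = 0.0825). ABHD2, a lipid hydrolase, rose with knockdown by 0.16 ± 0.04 in LNCaP with vehicle (adjusted p = 0.00194) and by 0.19 ± 0.04 in LNCaP-abl (adjusted p = 0.000319). The same gene was at 0.14 ± 0.04 under DHT, and of its 6 probe sets tested 5 were higher in LNCaP with vehicle and 1 was at -0.13. In LNCaP-abl 2 of the 6 ABHD2 probe sets were at -0.04 and -0.03. HPGD, the dehydrogenase that inactivates prostaglandins, was low without hormone, at 4.82 ± 0.11 in starved LNCaP. It rose with knockdown there by 0.53 ± 0.09 (adjusted p = 0.000195), and its 3 other probe sets tested were at 0.48 to 0.70. Under DHT HPGD was at -0.18 ± 0.09 and in LNCaP-abl at -0.10 ± 0.09 (adjusted p = 0.378).

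Among the signalling genes, IQGAP2 and PMEPA1 differed most between the lines, in opposite directions. IQGAP2 is a scaffold protein of the cytoskeleton. IQGAP2 was at 7.78, 7.74 and 7.66 in starved LNCaP and at 8.27, 8.15 and 8.16 with TRIM24 siRNA. With DHT, IQGAP2 was at 9.40, 9.30 and 9.36 with control siRNA and 9.63, 9.63 and 9.59 after knockdown. In LNCaP-abl, IQGAP2 was at 9.57, 9.68 and 9.71 and, after knockdown, at 9.95, 9.93 and 9.96. Knockdown arrays were above control arrays in each setting, and without hormone LNCaP-abl with control siRNA was above LNCaP with DHT and control siRNA. The rise with knockdown was 0.47 ± 0.04 in LNCaP with vehicle (limma, adjusted p = 4.61e-07) and 0.29 ± 0.04 in LNCaP-abl (adjusted p = 5.71e-05). LNCaP-abl differed from LNCaP by 1.93 ± 0.04 with control siRNA, and by 1.75 ± 0.04 with TRIM24 siRNA (adjusted p = 6.33e-15).

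PMEPA1 is a membrane protein that holds back TGF-beta signalling. PMEPA1 was at 10.52, 10.40 and 10.55 in starved LNCaP and at 10.34, 10.37 and 10.34 after knockdown. With DHT, PMEPA1 was at 12.78, 12.84 and 12.81 with control siRNA and 12.83, 12.83 and 12.76 after knockdown. In LNCaP-abl, PMEPA1 was at 6.35, 5.56 and 5.92 and 6.24, 5.68 and 5.89. The gene was bright in LNCaP and near the median of the table in LNCaP-abl, where its arrays were more spread than in LNCaP. The difference between the lines was -4.55 ± 0.15 with control siRNA, and -4.41 ± 0.15 with TRIM24 siRNA (limma, adjusted p = 2.09e-13). Its other probe sets tested were at -3.34 and -2.62 in the latter. Knockdown gave -0.14 ± 0.15 in LNCaP with vehicle and 0.00 ± 0.15 in LNCaP-abl, with neither called (adjusted p = 0.514 and 0.985). A PMEPA1 probe set nearly as bright was at -0.41 in LNCaP with vehicle (adjusted p = 0.00303) and -0.01 in LNCaP-abl. For that probe set the knockdown change in LNCaP-abl minus that in LNCaP with vehicle was 0.40 (adjusted p = 0.044). The dimmest probe set tested was at -0.16 (adjusted p = 0.447) and 0.04, so the result in starved LNCaP depends on the probe set.

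TNFAIP8 is a regulator of cell death. TNFAIP8 was at 9.11, 9.09 and 8.95 in starved LNCaP and at 9.01, 8.96 and 9.01 after knockdown. With DHT, TNFAIP8 was at 10.99, 10.88 and 10.95 and, after knockdown, at 10.62, 10.64 and 10.55. In LNCaP-abl, TNFAIP8 was at 9.00, 9.06 and 9.04 with control and 8.41, 8.32 and 8.36 with TRIM24 siRNA. Knockdown separated the arrays under DHT and in LNCaP-abl, and in starved LNCaP the groups overlapped. In LNCaP-abl the gene fell by 0.67 ± 0.05 (limma, adjusted p = 8.49e-09), and in LNCaP with vehicle the difference was -0.06 ± 0.05 (adjusted p = 0.381). Under DHT it was -0.34 ± 0.05, and another, dim probe set was at -1.76.

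MAK, a kinase first found in male germ cells, was below the median of the table without hormone and was at -0.24 ± 0.09 with knockdown under DHT. Its level in LNCaP-abl was 3.97 ± 0.11, and knockdown there gave 0.13 ± 0.09 (limma, adjusted p = 0.271). HOMER2, a scaffold of the synaptic family, fell with knockdown in LNCaP-abl by 0.27 ± 0.09 (adjusted p = 0.0211). That call was lost without the second or the third control array (-0.19 and -0.24, adjusted p = 0.114 and 0.0694) and without the first knockdown array (-0.23, adjusted p = 0.0739). With the control-probe 3′ excess in the model HOMER2 was at -0.21 (adjusted p = 0.162). The other HOMER2 probe set tested was at -0.51 in LNCaP with vehicle (adjusted p = 2.57e-05), -0.46 under DHT and -0.11 in LNCaP-abl (adjusted p = 0.213). CAMKK2, the kinase that activates AMPK in response to calcium, had the smallest DHT response above 0.5 and was at 0.02 ± 0.09, -0.15 ± 0.09 and 0.00 ± 0.09 with knockdown in starved LNCaP, DHT-treated LNCaP and LNCaP-abl.

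Among the nuclear genes MAF differed most between the settings. MAF is a basic leucine zipper transcription factor. MAF was at 8.71, 8.75 and 8.52 in starved LNCaP and at 7.79, 7.83 and 7.85 after knockdown. With DHT, MAF was at 11.34, 11.26 and 11.34 with control siRNA and 11.59, 11.47 and 11.50 after knockdown. In LNCaP-abl, MAF was at 3.41, 3.23 and 3.54 and 3.93, 4.07 and 3.56. The knockdown arrays were below the controls in starved LNCaP and above them in both other settings, and all 6 LNCaP-abl arrays were near the lower end of the scale. MAF fell by 0.84 ± 0.10 in LNCaP with vehicle (limma, adjusted p = 6.9e-06), which its other probe sets also had at -0.50 and -1.03. In LNCaP-abl MAF rose by 0.46 ± 0.10 (adjusted p = 0.0016), where the other probe sets were at 0.15 and 0.13 and the mean of all probe sets at 0.15 (adjusted p = 0.0982). The lines differed by -5.27 ± 0.10 with control siRNA and by -3.97 ± 0.10 with TRIM24 siRNA (adjusted p = 7.74e-15).

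NCAPD3 is a subunit of the condensin II complex that compacts chromosomes. NCAPD3 was at 8.81, 8.75 and 8.71 in starved LNCaP and at 8.70, 8.74 and 8.64 after knockdown. With DHT, NCAPD3 was at 12.20, 12.24 and 12.19 and, after knockdown, at 11.83, 11.82 and 11.83. In LNCaP-abl, NCAPD3 was at 9.01, 9.04 and 8.91 and 8.34, 8.48 and 8.44. The starved LNCaP groups overlapped, while both other knockdown groups were clear of their controls and the LNCaP-abl knockdown arrays were also below starved LNCaP. The gene fell by 0.57 ± 0.04 in LNCaP-abl (limma, adjusted p = 3.38e-08), and was at -0.06 ± 0.04 in LNCaP with vehicle (adjusted p = 0.274) and -0.38 ± 0.04 under DHT.

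ZBTB10, a zinc-finger repressor, rose with knockdown in LNCaP with vehicle by 0.27 ± 0.06 (limma, adjusted p = 0.00234) and fell in LNCaP-abl by 0.22 ± 0.06 (adjusted p = 0.00873). With the control-probe 3′ excess in the model the rise was 0.20 (adjusted p = 0.103), and under quantile normalization the fall was -0.12 (adjusted p = 0.0879). Under DHT ZBTB10 was at -0.35 ± 0.06, and 4 of its 5 probe sets tested shared these 3 directions. MED28, the gene that DHT did not raise, fell with knockdown by 0.18 ± 0.04 in LNCaP with vehicle (adjusted p = 0.00294) and by 0.32 ± 0.04 in LNCaP-abl (adjusted p = 1.34e-05). Its probe sets disagreed, ranging from -0.30 to 0.24 in the first comparison.

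The last group holds genes of vesicle traffic, protein turnover and the centrosome, and 2 of little-known function. APPBP2 binds the amyloid precursor protein and serves a ubiquitin ligase. APPBP2 was at 9.72, 9.67 and 9.64 in starved LNCaP and at 9.32, 9.17 and 9.22 after knockdown. With DHT, APPBP2 was at 10.82, 10.78 and 10.83 and, after knockdown, at 10.26, 10.24 and 10.39. In LNCaP-abl, APPBP2 was at 9.60, 9.65 and 9.66 and 9.13, 9.11 and 9.08. Its decrease with knockdown was alike in size in the 3 settings, and no control array overlapped a knockdown array. APPBP2 fell by 0.44 ± 0.04 in LNCaP with vehicle (limma, adjusted p = 8.03e-07), and by 0.53 ± 0.04 in LNCaP-abl (adjusted p = 9.14e-08). Under DHT the difference was -0.51 ± 0.04. Of the 2 other probe sets tested, the dimmer was at -0.32 in LNCaP with vehicle, -0.37 under DHT and -0.27 in LNCaP-abl. The brighter was at -0.11, -0.14 and -0.13. It was not called in LNCaP with vehicle or in LNCaP-abl (adjusted p = 0.17 and 0.103). Under DHT that probe set was outside the threshold too, so by it APPBP2 would be in neither group.

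C1orf116 encodes a protein known as specifically androgen-regulated. C1orf116 was at 9.22, 9.22 and 9.23 in starved LNCaP and at 8.48, 8.53 and 8.47 after knockdown. With DHT, C1orf116 was at 12, 11.81 and 11.92 and 11.26, 11.36 and 11.41 with control and TRIM24 siRNA. In LNCaP-abl, C1orf116 was at 10.13, 10.12 and 10.10 and 9.86, 9.91 and 9.95. Every knockdown group was below its control group, and LNCaP-abl lay between starved and DHT-treated LNCaP with either siRNA. The gene fell by 0.73 ± 0.05 in LNCaP with vehicle (limma, adjusted p = 3.19e-09) and by 0.21 ± 0.05 in LNCaP-abl (adjusted p = 0.00127). Its other probe sets tested were at -0.63 and -0.38 in LNCaP with vehicle and at -0.34 and -0.48 in LNCaP-abl. LNCaP-abl was at 0.89 ± 0.05 with control siRNA, and 1.41 ± 0.05 higher with TRIM24 siRNA (adjusted p = 1.14e-13).

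TPD52 takes part in vesicle traffic and lipid storage. TPD52 was at 12.07, 12.05 and 12.04 in starved LNCaP and at 12.16, 12.18 and 12.13 after knockdown. With DHT, TPD52 was at 13.30, 13.32 and 13.33 with control siRNA and 13.21, 13.22 and 13.19 after knockdown. In LNCaP-abl, TPD52 was at 12.93, 12.95 and 12.99 and 12.86, 12.89 and 12.87. All groups were bright and tight, and LNCaP-abl lay closer to the DHT-treated than to the starved cells. LNCaP-abl differed by 0.91 ± 0.03 with control siRNA and by 0.72 ± 0.03 with TRIM24 siRNA (limma, adjusted p = 1.39e-12). Knockdown gave small changes, a rise of 0.11 ± 0.03 in LNCaP with vehicle (adjusted p = 0.00621) and a fall by 0.09 ± 0.03 in LNCaP-abl (adjusted p = 0.0203). Neither was called with the control-probe 3′ excess in the model (adjusted p = 0.0634 and 0.0859), and the second was not called without the third control (-0.07, adjusted p = 0.0913) or first knockdown array (-0.08, adjusted p = 0.06).

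CCDC141 is a coiled-coil protein linked to the centrosome and cell migration. CCDC141 was at 3.30, 3.47 and 3.30 in starved LNCaP and at 3.61, 3.47 and 3.55 after knockdown. With DHT, CCDC141 was at 9.33, 9.27 and 9.42 with control siRNA and 9.32, 9.21 and 9.01 after knockdown. In LNCaP-abl, CCDC141 was at 3.22, 3.29 and 3.27 and 3.53, 3.26 and 3.28. Signal without hormone was near the lower end of the scale in both lines, and the 6 DHT arrays stood far above it. With TRIM24 siRNA the DHT difference was 5.64 ± 0.08, given with no test because the gene passed the filter on low signal through the DHT groups alone. Knockdown gave 0.18 ± 0.08 in LNCaP with vehicle (limma, adjusted p = 0.0905), called without the second control array (0.24, adjusted p = 0.0478), and 0.10 ± 0.08 in LNCaP-abl (adjusted p = 0.347). MPHOSPH9, a centrosomal protein, fell with knockdown in LNCaP-abl by 0.31 ± 0.06 (adjusted p = 0.000593), but its 3 other probe sets tested were at 0.30, 0.00 and -0.18.

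The first question across the set was whether DHT still raised these genes when TRIM24 was depleted. CCDC141, HPGD and MAK passed the filter on low signal through the DHT groups alone and are left out of this count. Of the 25 others, 24 rose with DHT in cells with TRIM24 siRNA and MED28 fell by 0.20 ± 0.04 (limma, adjusted p = 0.000866). Of all genes tested, 16.9% were called higher and 26.6% lower in that comparison. The median change of the 25 was 1.61, and that of all genes was -0.04. Among the 25 TRPM8 rose the most, followed by MAF at 3.70 ± 0.10 and NCAPD3 at 3.13 ± 0.04. The rise of CAMKK2, 0.33 ± 0.09 (adjusted p = 0.00778), was not called without the first array with TRIM24 siRNA and DHT (0.23, adjusted p = 0.051). The arrays of this comparison are not those of the DHT contrast with control siRNA. Earlier results of these data were known when the genes were chosen.

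Set beside the response with control siRNA, the response with TRIM24 siRNA was of similar size for most genes. Of the 26 genes with a DHT difference of at least 0.5, 21 had 80% to 120% of the control response on the log2 scale. CAMKK2 had 64.7%, HPGD 69.9% and ZBTB10 71.6%, and at the other end INPP4B had 121% and MAF 140%. The low values of CAMKK2 and HPGD rest on 1 probe set each, since another of CAMKK2 had 86.7% and the 3 others of HPGD 82.6% to 84.8%. The 3 others of ZBTB10 with a DHT response had 63.4% to 70.8%, and those of MAF 148% and 151%. Among genes inside the 80% to 120% band, a dim TNFAIP8 probe set had 37.2% and another of that gene 87.4%. Further ANKH probe sets had 115% to 168%, and further TPD52 probe sets 79.4% to 85.1%. MAF was at 2.65 ± 0.10 with control and 3.70 ± 0.10 with TRIM24 siRNA, a gap of 1.04 ± 0.15. Its levels with DHT lay close together, and its starved level was the lower one after knockdown. ZBTB10 and HPGD had the opposite pattern, with a higher starved level after knockdown and gaps of -0.62 ± 0.09 and -0.71 ± 0.13. These gaps contain the DHT contrast with control siRNA, known when the genes were chosen, and were given no test.

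**Figure D2:**
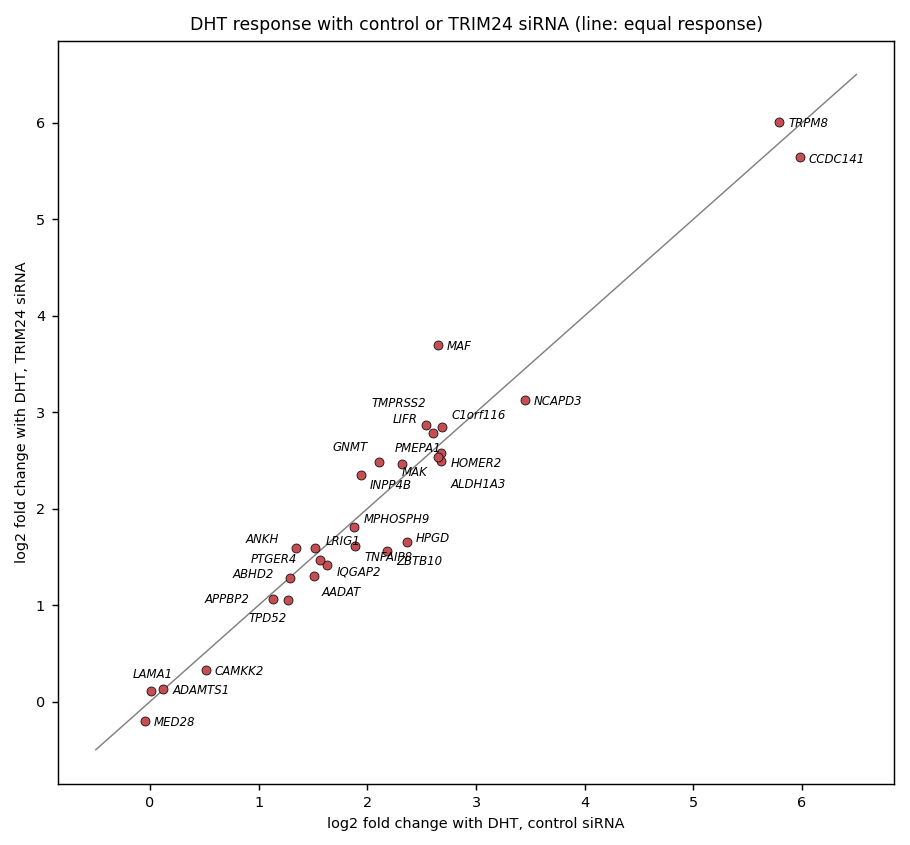
Each point is 1 gene, with the log2 change with DHT under control siRNA on the horizontal and under TRIM24 siRNA on the vertical axis, and the line marks equal responses. Most points lie near the line from CAMKK2 (0.51 and 0.33) to TRPM8 (5.79 and 6.01), MAF lies above it (2.65 and 3.70), and HPGD (2.36 and 1.65) and ZBTB10 (2.18 and 1.56) lie below.

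Sorted by the knockdown under DHT, 11 genes were lower, 5 were higher and 12 were neither at adjusted p under 0.05, where 20.8% of all genes were lower and 19.4% higher. The 11 were AADAT, C1orf116, ALDH1A3, APPBP2, INPP4B, NCAPD3, ZBTB10, TNFAIP8, MED28, MAK and TPD52, from -0.61 ± 0.07 to -0.11 ± 0.03. The 5 were PTGER4, LIFR, TMPRSS2, IQGAP2 and ABHD2, from 0.90 ± 0.13 to 0.14 ± 0.04. MAK, at -0.24 ± 0.09, was just inside the threshold and HPGD, at -0.18 ± 0.09, just outside. MAK left its group without the first or the third control array (-0.17 and -0.24) and without the first or second knockdown array (-0.19 and -0.21). Without the first knockdown array CAMKK2 and CCDC141 joined the lower group, at -0.26 and -0.23. The sorting also depends on the probe set. Of genes in neither group, HOMER2 and ADAMTS1 were inside the threshold at -0.46 and -0.16 by another probe set. MAF was inside at 0.52 and MPHOSPH9 at 0.24 and 0.27, while their remaining probe sets tested, at 0.36 and -0.09, were outside. Other MED28 probe sets tested ranged from -0.37 to 0.11. With the control-probe 3′ excess in the model ALDH1A3, INPP4B, MAK, TPD52 and ABHD2 were at -0.64, -0.25, -0.48, -0.11 and 0.13 and in neither group. In that model 19.6% of all genes were called in this contrast, against 40.2% without the covariate.

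The knockdown in LNCaP-abl uses none of the arrays that sorted the genes by TRIM24, though its control arrays entered the contrast of the lines. Of the 28 genes 13 fell, 6 rose and 9 were not called (limma), where 28.8% of all genes were lower and 16.7% higher. Of the 11 genes that were lower under DHT, 9 fell and 0 rose in LNCaP-abl, with a median of -0.32, and ALDH1A3 and MAK were not called. Of the 5 that were higher, 4 rose and PTGER4 was not called. Of the 12 in neither group 4 fell and 2 rose. The median over all 28 was -0.12, and over all genes -0.01.

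The knockdown in LNCaP with vehicle was the third setting, and its control arrays also entered the DHT contrast and the contrast of the lines. There 10 genes fell, 7 rose and 11 were not called (limma), where 18% of all genes were lower and 20.5% higher. Of the 11 genes lower under DHT, 5 fell, 2 rose (ZBTB10 and TPD52) and 4 were not called. Of the 5 higher under DHT, 4 rose and TMPRSS2 was not called. The median over the 28 was -0.07, and over all genes 0.00. Each of the 3 settings therefore held falls and rises within the set.

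**Figure D3:**
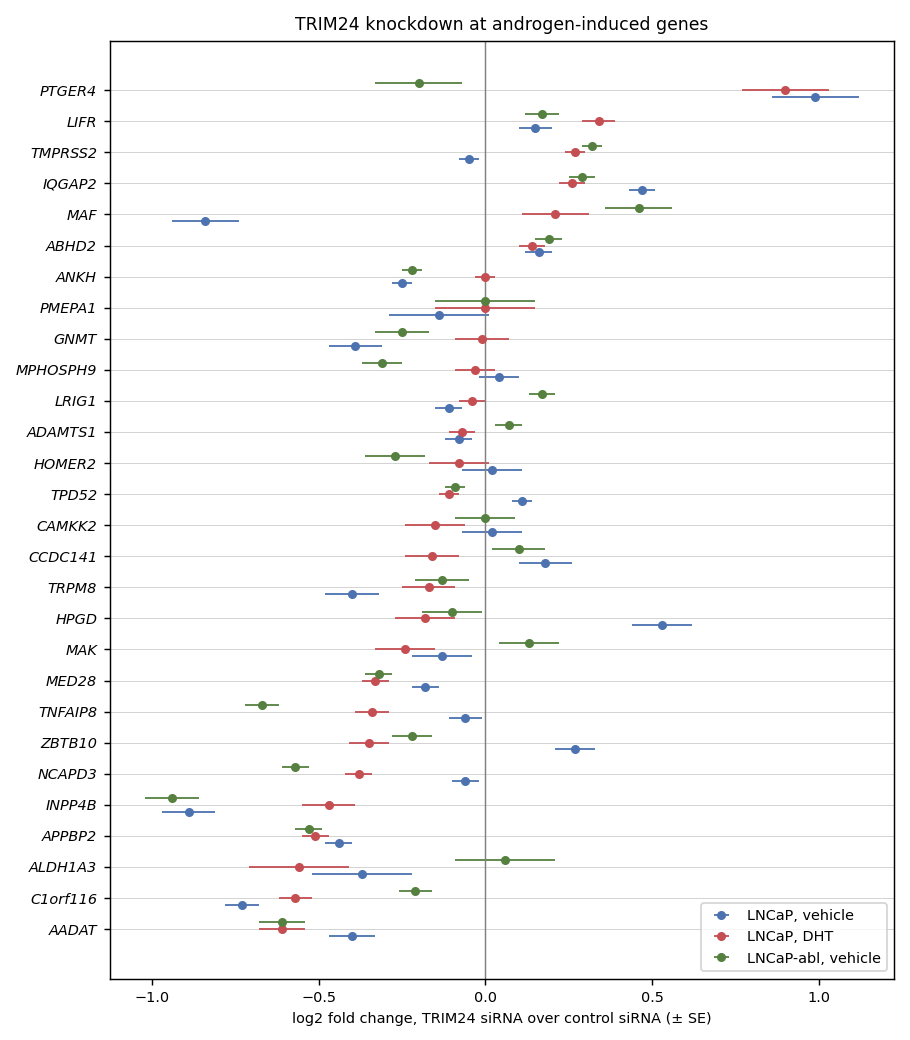
The horizontal axis is the log2 change with TRIM24 siRNA over control siRNA, with bars for the standard error, and each row is 1 of the 28 genes, with a colour for each setting (LNCaP starved, LNCaP given DHT, LNCaP-abl). AADAT, APPBP2, C1orf116 and INPP4B lie left of 0 in all 3 settings and IQGAP2, LIFR and ABHD2 right of it, while MAF (-0.84, 0.21 and 0.46) and PTGER4 (0.99, 0.90 and -0.20) cross it.

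Whether the knockdown change differed between the lines was tested directly, as the change in LNCaP-abl minus the change in LNCaP with vehicle. It differed for 12 of the 28 genes, 5 with a higher and 7 with a lower value in LNCaP-abl (limma), where 8.58% and 19.9% of all genes were called in these directions. The largest was MAF at 1.30 ± 0.15 (adjusted p = 1.11e-05), and PTGER4 was at -1.19 ± 0.18 (adjusted p = 0.000213). For both genes the LNCaP-abl levels lay below the median of the table, where RMA values are compressed. Among genes bright in both lines, TNFAIP8 was at -0.62 ± 0.06 (adjusted p = 5.96e-06), C1orf116 at 0.52 ± 0.06 (adjusted p = 3.04e-05) and NCAPD3 at -0.50 ± 0.06 (adjusted p = 2.61e-05). The other C1orf116 probe sets tested were at 0.29 (adjusted p = 0.000652) and -0.10 (adjusted p = 0.556). TMPRSS2 was at 0.37 ± 0.05 (adjusted p = 5.58e-05), and by its other probe sets tested at 0.47 (adjusted p = 0.000282) and 0.21 (adjusted p = 0.11). APPBP2 and INPP4B, with falls in both lines, differed by -0.09 ± 0.06 and -0.05 ± 0.11 (adjusted p = 0.306 and 0.774). AADAT was at -0.21 ± 0.10 (adjusted p = 0.133), and at -0.24 (adjusted p = 0.0488) with the control-probe 3′ excess in the model. ADAMTS1, at 0.15 ± 0.05 (adjusted p = 0.0394), was called in full data but under 8 of the 12 omissions of a single array was at 0.11 to 0.15 and not called, those being each knockdown array and the first and second control arrays of LNCaP, and in LNCaP-abl the first control, the third control and the second knockdown arrays. ALDH1A3 and GNMT were called, at 0.69 (adjusted p = 0.000499) and 0.27 (adjusted p = 0.0126), without the second LNCaP-abl knockdown array. AADAT and MED28 were called at -0.31 and -0.18 without the first LNCaP-abl knockdown array, and TRPM8 at 0.35 without the third or at 0.34 without the second LNCaP-abl control array. IQGAP2 was called at -0.19 to -0.22 and HOMER2 and MAK at -0.40 and 0.34 without single control or knockdown arrays.

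The other sorting was by level in LNCaP-abl against starved LNCaP, both with control siRNA. By it 8 genes were higher (IQGAP2, TPD52, LIFR, C1orf116, ZBTB10, HPGD, TMPRSS2 and NCAPD3), 13 were lower and 7 neither, where 29.1% of all genes were higher and 34.6% lower. Lower were MAF, PMEPA1, ALDH1A3, PTGER4, GNMT, TRPM8, ANKH, MAK, INPP4B, ADAMTS1, CAMKK2, AADAT and ABHD2. GNMT was at -1.34 ± 0.08 and ANKH at -0.70 ± 0.03. The other ANKH probe sets tested disagreed, at -0.26, -0.75, 0.63 and -0.08. HPGD (0.27 ± 0.09) and CAMKK2 (-0.25 ± 0.09) were just inside the threshold and HOMER2 (-0.19 ± 0.09) just outside. HPGD left its group without the first (0.25) or the third (0.22) control array of LNCaP or the first of LNCaP-abl (0.23). CAMKK2 left without the first (-0.25) or second (-0.20) control array of LNCaP or the third of LNCaP-abl (-0.21), and HOMER2 entered the lower group without the third control array of LNCaP (-0.26) or the second of LNCaP-abl (-0.27). The 3 other HPGD probe sets were lower in LNCaP-abl, at -0.18 to -0.42, so its place among the higher genes rests on 1 probe set. MPHOSPH9, in neither group at -0.11 ± 0.06, was at 0.53 and 0.82 by 2 of its other probe sets. APPBP2, also in neither group, was at 0.43 and 0.00 by its other probe sets tested.

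A second way to place LNCaP-abl is on the interval from starved LNCaP (0%) up to DHT-treated LNCaP (the full response). Of the 26 genes with a DHT difference of at least 0.5, LNCaP-abl was below the starved level for 17, between the levels for 8 and above the DHT level for 1. Of the 17 below, 12 were called lower and 5 were in neither group (TNFAIP8, CCDC141, APPBP2, MPHOSPH9 and HOMER2), and of the 8 between, 7 were called higher and LRIG1 was not. IQGAP2 was at 118%, TPD52 at 71.6%, LIFR at 34.8% and C1orf116 at 33.3%. TMPRSS2 was at 10.2% and NCAPD3 at 6.7%. At the other end MAF was at -199%, PMEPA1 at -196%, PTGER4 at -162% and ALDH1A3 at -98.3%. TRPM8 and CCDC141, the strongest DHT responders, were at -20.1% and -1.7%, and without hormone their signal was near or below the median of the table in both lines. The starved arrays enter both lengths, so these are descriptions.

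**Figure D4:**
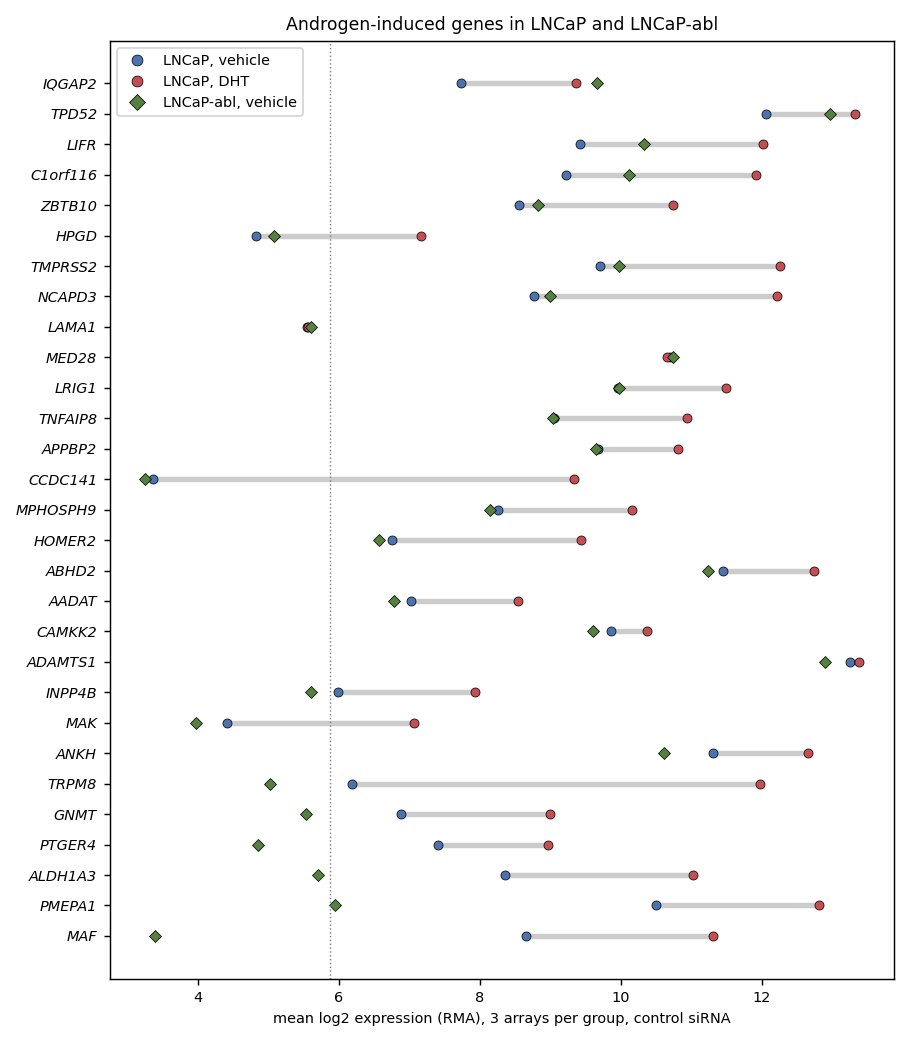
Each row is 1 gene, with its mean log2 level (3 arrays, control siRNA) in starved LNCaP, DHT-treated LNCaP and LNCaP-abl with vehicle, and the grey bar joins the first 2; the dotted line is the median of the table (5.88). The LNCaP-abl mark lies beyond the DHT level for IQGAP2, inside the bar for TPD52, LIFR and C1orf116, and far left of it for MAF, PMEPA1, ALDH1A3 and PTGER4.

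The arrays with TRIM24 siRNA give the contrast of the lines in samples that the sorting did not use. There 19 genes were lower in LNCaP-abl, 6 higher and 3 not called (limma), where 40.2% of all genes were lower and 29.6% higher. Of the 13 genes sorted as lower 12 were lower, and MAK was not called at -0.19 ± 0.09 (adjusted p = 0.0737). Of the 8 sorted as higher 5 were higher (IQGAP2, C1orf116, LIFR, TPD52 and TMPRSS2) and 3 lower. Those 3 were HPGD at -0.36 ± 0.09 (adjusted p = 0.00196), NCAPD3 at -0.27 ± 0.04 (adjusted p = 3.66e-05) and ZBTB10 at -0.23 ± 0.06 (adjusted p = 0.00394), which was -0.11 (adjusted p = 0.0949) after quantile normalization. TMPRSS2 was at 0.63 ± 0.03 (adjusted p = 1.02e-10), against 0.26 ± 0.03 with control siRNA. LRIG1, in neither group before, was at 0.30 ± 0.04 (adjusted p = 1.34e-06). The lower calls of APPBP2 and CAMKK2 depended on single arrays: APPBP2 went from -0.13 to -0.09 (adjusted p = 0.0981) without the first LNCaP array and -0.12 (adjusted p = 0.0521) without the third LNCaP-abl array. Its 2 other probe sets tested were at 0.41 and 0.05. CAMKK2 went from -0.27 to -0.24 (adjusted p = 0.0566) without the first LNCaP-abl array, and without that array CCDC141 and MED28 were called at -0.28 and -0.13. CCDC141 was also called, at -0.22 (adjusted p = 0.0451), without the second LNCaP array, and at -0.19 (adjusted p = 0.0469) with the control-probe 3′ excess in the model.

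The 2 sortings cross. Of the 8 genes higher in LNCaP-abl, 4 were lower with knockdown under DHT (ZBTB10, NCAPD3, TPD52 and C1orf116), 3 higher (TMPRSS2, LIFR and IQGAP2) and 1 neither. Of the 13 lower in LNCaP-abl, 4 were lower with knockdown under DHT, 2 higher and 7 neither.

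Other androgen-induced genes were described for comparison from a list of 25, of which 21 could be named and tested. Of these, 3 passed the filter through the DHT groups alone, among them STEAP4, a metalloreductase, whose DHT difference with TRIM24 siRNA was 6.10 ± 0.12 from a level of 3.75 ± 0.13. Of the 18 others 17 rose with DHT and TRIM24 siRNA and 1 fell (limma), with a median of 1.60, where 16.9% of all genes rose and 26.6% fell. KLK3, prostate-specific antigen, was at 6.03 ± 0.13. The 1 that fell was ACP3, prostatic acid phosphatase, at -0.60 ± 0.03. With knockdown in LNCaP with vehicle 8 of the 21 fell and 5 rose, with a median of -0.06, where 18% and 20.5% of all genes did. In LNCaP-abl 10 fell and 5 rose, with a median of -0.12, where 28.8% and 16.7% of all genes did. SLC45A3, the sugar transporter prostein, fell the most there, by 1.19 ± 0.06 (adjusted p = 9.91e-11), and ELL2, an elongation factor, was next at -0.92 ± 0.08 (adjusted p = 2.11e-07). ACP3 rose there by 0.96 ± 0.03 (adjusted p = 5.24e-12). AZGP1, a secreted lipid-mobilizing glycoprotein, was at 3.39 ± 0.08 and 4.05 ± 0.27 in LNCaP-abl with control and TRIM24 siRNA, both far below the median of the table. The test of the difference in knockdown change between the lines called 4 of the 21 higher and 3 lower, where 8.58% and 19.9% of all genes were.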

How the data were processed

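Total RNA of 18 samples was labelled as biotinylated cRNA and hybridised to 1 Affymetrix array each. The authors deposited log2 expression values per probe set after RMA, per the submitters' processing notes (background correction, quantile normalization and median polish; its version is not given in the sources used here). RMA compresses differences of dim probe sets. The values were used as deposited. Of 54675 probe sets, 62 were controls, and the platform annotation gives 1 gene symbol to 41097, several to 1801 and none to 11777; 41043 were matched to current symbols by gene ID. A gene was represented by its probe set with the highest mean, and genes whose 3 brightest arrays were all at or above 5.88, the table's median, were tested, which left 13607 genes. A model of 6 group means was fitted with limma 3.58.1 in R 4.3.3 (12 residual degrees of freedom), with Benjamini-Hochberg adjustment over all genes tested and calls at adjusted p under 0.05; the fit was checked on simulated data. The number of arrays limits the precision, and the median residual SD was 0.073 over all genes and 0.078 over the genes described.

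The members and gene lists were chosen with earlier results of these data known. All 32 members are named, and values array by array are given for 16 of them. Of other genes, those with the largest changes in each direction of the list of other androgen-induced genes are named, and TRIM24. Alternatives were the filter, the choice of probe set, centring, quantile normalization, the samples in the fit, variance options, array weights, stricter calls, a replicate block, a 3′ excess covariate and leaving out each array. Promoters came from a RefSeq table of GRCh38.p14. KCNN2, SORD and HERC3 were not analysed.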

Additional observations from a re-analysis of the deposited data

Results flagged for a closer look

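For 12 of the 28 genes the change with TRIM24 siRNA differed between LNCaP-abl and LNCaP with vehicle by the limma test of the difference itself. The value given is the log2 change in LNCaP-abl minus that in LNCaP. It was higher for 5 and lower for 7 of the 28, where 8.58% and 19.9% of all genes tested were called in these directions. A higher value in LNCaP-abl was measured for MAF, at 1.30 (adjusted p = 1.11e-05), C1orf116 at 0.52 (adjusted p = 3.04e-05), TMPRSS2 at 0.37 (adjusted p = 5.58e-05), LRIG1 at 0.28 (adjusted p = 0.000631) and ADAMTS1 at 0.15 (adjusted p = 0.0394). A lower value was measured for PTGER4, at -1.19 (adjusted p = 0.000213), HPGD at -0.63 (adjusted p = 0.00182) and TNFAIP8 at -0.62 (adjusted p = 5.96e-06). ZBTB10 was at -0.50 (adjusted p = 0.000736) and NCAPD3 at -0.50 (adjusted p = 2.61e-05). MPHOSPH9 was at -0.35 (adjusted p = 0.00628) and TPD52 at -0.19 (adjusted p = 0.00207). MAF and LRIG1 were called lower with knockdown in LNCaP and higher in LNCaP-abl, and ZBTB10 and TPD52 the other way. The calls within a line did not all hold. With the control-probe 3′ excess in the model, ZBTB10 (adjusted p = 0.103) and TPD52 (adjusted p = 0.0634) were not called in LNCaP, nor TPD52 in LNCaP-abl (adjusted p = 0.0859). LRIG1 was not called in LNCaP without the second or the third knockdown array (adjusted p = 0.0544 and 0.0652). MAF in LNCaP-abl was at 3.39 with control and 3.86 with TRIM24 siRNA, far below the median of the table, and the change of its other probe sets tested was 0.15 and 0.13. For C1orf116 the difference between the lines was 0.29 and -0.10 by its other probe sets tested, the latter not called (adjusted p = 0.556). Other MPHOSPH9 probe sets tested were at -0.05, -0.24 and -0.01, with none called. Those of TPD52 were at -0.20, -0.15, -0.30 and -0.35, also with none called. Of the 3 others of HPGD, at -0.42, -0.55 and -0.37, only the second was called (adjusted p = 0.0238). HPGD lay below the median of the table in both lines without hormone. Other TMPRSS2 probe sets were at 0.47 (adjusted p = 0.000282) and 0.21 (adjusted p = 0.11).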

How the results depend on the processing

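The 3′ to 5′ signal of control probe sets was higher with TRIM24 siRNA, and its part in the knockdown results was not tested beyond its use as a covariate. With it, 14 genes were called with knockdown in LNCaP with vehicle (27.7% of all genes), 18 in LNCaP-abl (36.5%), 26 between the lines with TRIM24 siRNA (70.0%) and 13 for the difference between lines (27.9%). For knockdown under DHT, the contrast used for sorting, the share of all genes called went from 40.2% to 19.6%. The cause of the changes below was not tested. The median response to DHT with control siRNA went from 2.02 to 1.94 with no filter, to 1.94 with a filter at 7, to 2.26 with the most variable probe set and to 1.61 with the mean of probe sets. With the most variable probe set, 0 genes were lower with DHT and TRIM24 siRNA, 4 were higher with knockdown in LNCaP with vehicle, 12 were called and 8 lower with knockdown in LNCaP-abl, and 4 were lower for the difference between lines. In the same order, 43.5%, 39.7%, 45.9% and 26.9% of all genes were then called in either direction. With the mean of probe sets, 3 were higher with knockdown in LNCaP-abl, where 44.5% of all genes were called in either direction. The median gap between DHT responses then went from -0.08 to 0.00. With a change of at least 0.5 required, 0 were lower with DHT and TRIM24 siRNA, where 10.7% of all genes were called in either direction. Knockdown in LNCaP with vehicle then called 5 (2 higher, 3 lower) and 6.32% of all genes, knockdown in LNCaP-abl 5 (0 higher, 5 lower) and 6.39%, the lines with TRIM24 siRNA 13 (8 lower) and 25.9%, and the difference between lines 6 (2 higher, 4 lower) and 4.39%. The half-site share went from 9.43% to 32.1% with the looser half-site.

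Directions reversed only with another choice of probe set. With the most variable one, LIFR was at -0.07 and -0.11 with knockdown in LNCaP with vehicle and in LNCaP-abl, ABHD2 at -0.03 in LNCaP-abl, and INPP4B and MPHOSPH9 at 0.14 and 0.27 under DHT. HPGD, ZBTB10 and MPHOSPH9 were at -0.18, -0.05 and 0.82 between the lines with control siRNA, and MPHOSPH9 at 0.57 with TRIM24 siRNA. With the mean of probe sets, LIFR and HOMER2 were at -0.04 and -0.24 with knockdown in LNCaP with vehicle. HPGD, TNFAIP8, APPBP2 and MPHOSPH9 were at -0.14, 0.19, 0.16 and 0.31 between the lines with control siRNA, APPBP2 and MPHOSPH9 at 0.10 and 0.14 with TRIM24 siRNA, and the IQGAP2 gap between DHT responses at 0.08.

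The replicate numbers did not pair the samples: of 45 same-numbered pairs 6 correlated above 0.1 (range -0.3 to 0.2). With the replicate block 17 genes were called with knockdown in LNCaP with vehicle (37.6% of all genes) and 19 in LNCaP-abl (44.6%). Between the lines with TRIM24 siRNA 25 were called (69.3%), and for the difference between lines 12 (27.2%). These counts were the same without the block. Dim signal limits MAF, PTGER4, CCDC141, MAK, HPGD, INPP4B, TRPM8, ALDH1A3, GNMT and LAMA1, whose means lay below the median of the table in at least 1 group.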
